A study of Bos taurus with 4 samples.

Results

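Zinc transporters of the cell membrane and of the secretory pathway were followed in granulosa cells, which line the ovarian follicle and feed the oocyte. The 9 genes are SLC30A1, SLC30A4, SLC30A5, SLC30A6, SLC30A7, SLC30A9, SLC39A8, SLC39A10 and SLC39A14. Their probes were found by gene symbol in the platform's probe-to-gene table, which gave 17 of the 43794 probes on the array. SLC30A7 was chosen because of its ratio between the donor groups, so its ratio is given below as a description with no test. The other 8 were chosen because they belong to the same families. SLC30A7 was the only one of the 9 with a higher signal in the good-donor pool on every array, as had 5.42% of tested genes. Of the other 8, 6 had a mean ratio above 0, which is higher in good-donor pools, and 2 below. Over all tested genes 48.4% were above 0. Of these 8 genes, 0 had the same direction on all 4 arrays.

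The cells came from Holstein cattle after ovarian stimulation and coasting, which is a pause between the hormone treatment and the collection of the follicles. Each of 4 arrays carried RNA of 1 pool of donors whose oocytes had good developmental competence and of 1 pool of donors whose oocytes had poor competence, which gave 4 good-donor pools (numbers 1 to 4) and 4 poor-donor pools (numbers 9 to 12). The good-donor pool was labelled with Cy5 on arrays 1 and 2 and with Cy3 on arrays 3 and 4, while the poor-donor pool carried the other dye. The RNA was amplified linearly before labelling. The labels speak of pools and do not say how many animals each held, and the design text sets oocytes of cows against oocytes of heifers while all sample titles speak of heifers. Whether the donor groups also differ in age class is not settled by these labels. The spread over 4 arrays is the spread between pools, not between animals.

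Zinc is a cofactor of many enzymes and a structural part of many transcription factors, and its free concentration in the cytosol is held low. Proteins of the SLC30 family, also called ZnT, move zinc out of the cytosol, either across the cell membrane or into organelles. Proteins of the SLC39 family, also called ZIP, move it into the cytosol. In mouse ovaries zinc enters the oocyte during meiotic maturation and is needed for the arrest at metaphase of the second division, which is why zinc handling in the follicle is of interest beside oocyte competence.

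Values below are of 2 kinds. A level is the log2 intensity of a pool after background correction and normalization, and it is compared between pools for the same probe only. A ratio is the log2 of the good-donor over the poor-donor signal on the same array, so a positive value means a higher signal in the good-donor pool. All 9 genes had at least 1 probe above background in 4 or more of the 8 channels, with background set in each channel at percentile 95 of the foreground of dark corner and negative control spots. Of the 17 probes, 15 met this and entered the fit, from which no test of SLC30A7 is reported, and 2 probes, 1 of SLC30A1 and 1 of SLC30A6, were below it in all 8 channels. Each gene is described by its brightest tested probe, and 5 of the 9 have a single probe. Over the 12598 tested genes the median of the mean ratios was -0.0030, and 48.4% had a mean ratio above 0.

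SLC30A7 loads zinc into the Golgi apparatus, where it works as a dimer with itself. Its level was 9.49, 9.21, 9.49 and 9.09 in good-donor pools 1 to 4, and 8.51, 8.77, 8.74 and 8.65 in poor-donor pools 9 to 12. Every good-donor pool lay above every poor-donor pool, and the gap between the lowest good-donor and the highest poor-donor level was larger than the whole range of the poor-donor levels. The ratio was 0.97, 0.44, 0.75 and 0.44 on arrays 1 to 4, with a mean of 0.65 ± 0.26 (SD, n = 4), a 1.57-fold higher signal in good-donor pools. The ratio was largest on array 1 and close to equal on arrays 2 and 4. The mean ratio was 0.71 where Cy5 marked the good donors and 0.59 where Cy3 did, so the direction was the same in either dye orientation. Over the tested genes 1.39% had all good-donor levels above all poor-donor levels, 5.42% had a ratio above 0 on each of the 4 arrays, and 0.27% reached a mean ratio of 1.5-fold or more in this direction. These shares describe the rarity of the values by which the gene was picked and test nothing. SLC30A7 stood just above the 1.5-fold mark, and the next of the 9 genes was SLC39A14 at 1.17-fold, a mean log2 ratio of 0.22 that was 0.048 without array 4 and 0.067 with the mean of all its tested probes. SLC30A7 has 1 probe (EMBV3_18316), so no second probe can be set beside it. That probe was far below the top of the scale, at 0.697% to 2.03% of the brightest probe in the same channel. Its raw foreground was 279 to 595 in Cy5, against a background threshold of 43.8 to 46.8. In Cy3 the foreground was 582 to 770, against 77.4 to 110.

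**Figure D1:**
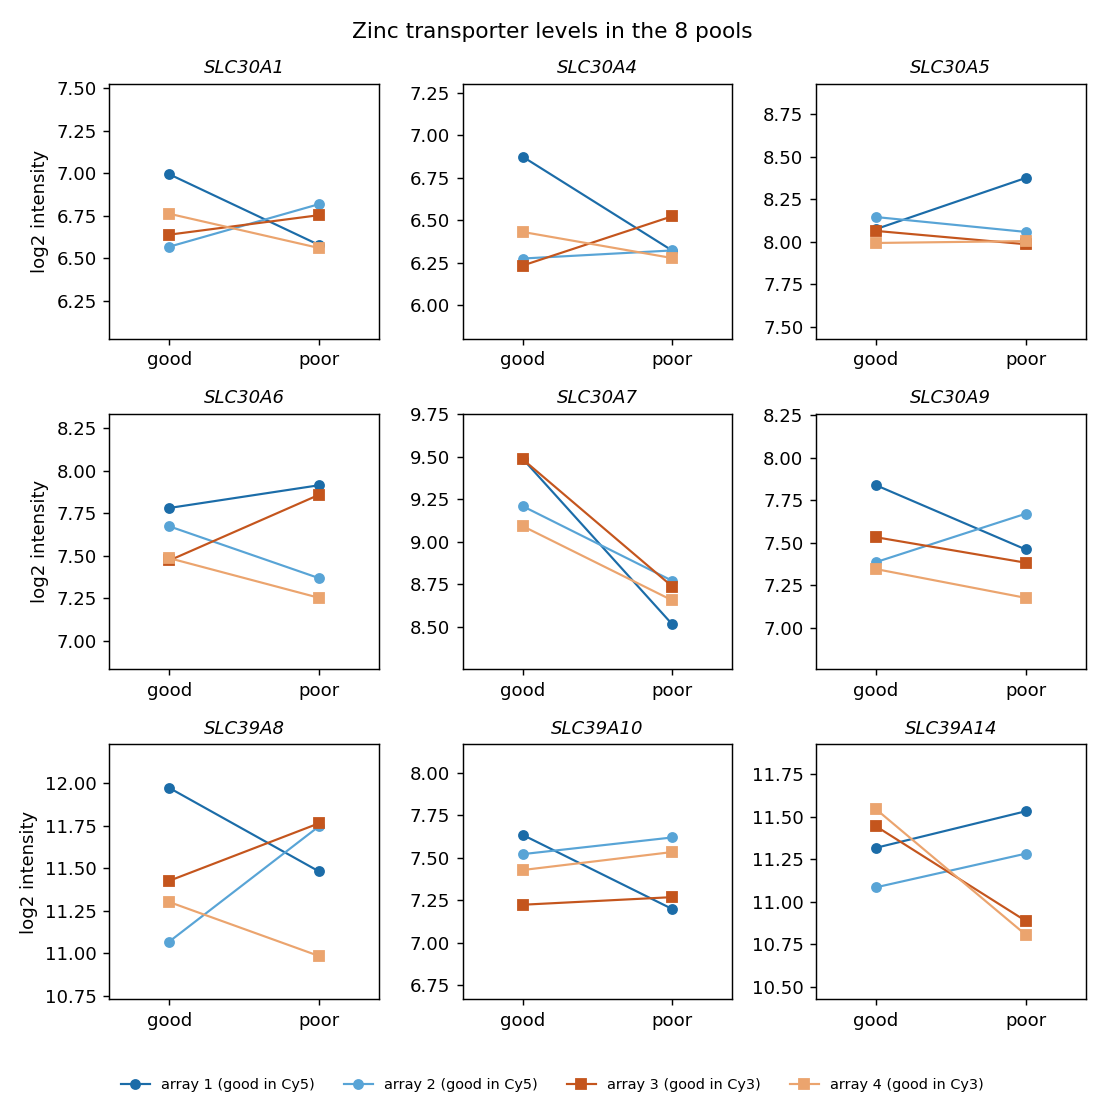
Level of each of the 9 zinc transporter genes (log2 intensity, vertical axis, own scale in each panel) in the good-donor and poor-donor pools. A line joins the 2 pools of an array, and circles mark arrays where good donors carried Cy5, squares those where they carried Cy3. Only for SLC30A7 do all 4 lines run the same way and the pools not overlap.

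SLC30A5 and SLC30A6 form a joint dimer that also loads zinc into the early secretory pathway, so they are the closest counterparts of SLC30A7 by location. SLC30A5 had levels of 8.08, 8.15, 8.06 and 7.99 in good-donor pools and 8.38, 8.06, 7.99 and 8.005 in poor-donor pools. The groups overlapped, and poor-donor pool 9 was the highest. Its mean ratio was -0.04 ± 0.18 (SD, n = 4), with a 95% interval from -0.26 to 0.18 and a limma adjusted p of 1. SLC30A6 had levels of 7.78, 7.67, 7.47 and 7.49 in good-donor pools and 7.91, 7.37, 7.86 and 7.25 in poor-donor pools, which also overlapped. The ratio was above 0 on arrays 2 and 4 and below 0 on arrays 1 and 3, with a mean of 0.0045 ± 0.32 (SD, n = 4), an interval from -0.34 to 0.35 and a limma adjusted p of 1. Its other tested probe gave 0.05, near background, being above it in 3 good-donor pools and 1 poor-donor pool. On array 1, where the ratio of SLC30A7 was largest, the ratios of SLC30A5 and SLC30A6 were -0.30 and -0.13.

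**Figure D2:**
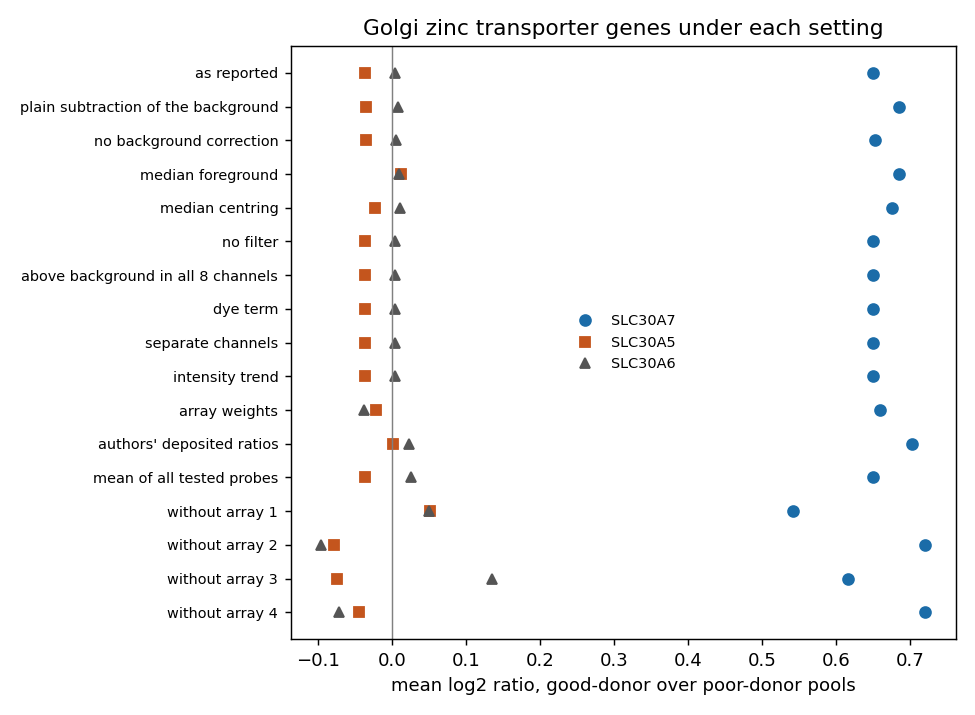
Mean log2 ratio of good-donor over poor-donor pools (horizontal axis) of the Golgi zinc transporter genes under the reported setting and each alternative, including the fits that leave out 1 array. The mean of SLC30A7 lay between 0.54 and 0.72, while those of SLC30A5 and SLC30A6 lay on either side of 0, from -0.096 to 0.135.

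SLC30A4 moves zinc into endosomes and other vesicles, and SLC30A9 is known in human cells and worms for moving zinc out of mitochondria. SLC30A4 was dim, at 6.87, 6.28, 6.23 and 6.43 in good-donor pools and 6.32, 6.32, 6.52 and 6.28 in poor-donor pools, and 1 poor-donor pool was not above background. Good-donor pool 1 stood above the other 7 pools, which lay within a narrow band. The mean ratio was 0.09 ± 0.36 (SD, n = 4), and its interval ran from -0.28 to 0.47 (limma adjusted p = 1). SLC30A9 had 7.84, 7.39, 7.53 and 7.35 in good-donor pools and 7.46, 7.67, 7.38 and 7.18 in poor-donor pools. Its ratio was above 0 on arrays 1, 3 and 4 and below 0 on array 2, with a mean ratio of 0.10 ± 0.28 (SD, n = 4) and an interval from -0.20 to 0.41 (limma adjusted p = 1), and without array 1 the mean was 0.012.

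SLC30A1 is the zinc exporter of the cell membrane, and its gene is switched on by the zinc sensor MTF1 together with the metallothionein genes. Its level was 6.99, 6.57, 6.64 and 6.76 in good-donor pools and 6.58, 6.82, 6.75 and 6.56 in poor-donor pools. The groups overlapped, with the highest level in good-donor pool 1 and the lowest in poor-donor pool 12. The mean ratio was 0.06 ± 0.30 (SD, n = 4), with an interval from -0.26 to 0.39 (limma adjusted p = 1), and the other tested probe, above background in 3 good-donor pools and 1 poor-donor pool, gave 0.05.

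The mean ratios of the 3 importers lay within their spread over arrays. SLC39A8, which carries zinc and manganese into cells, had levels of 11.97, 11.07, 11.43 and 11.30 in good-donor pools and 11.48, 11.75, 11.76 and 10.98 in poor-donor pools. The ratio was 0.49 and 0.32 on arrays 1 and 4 and -0.68 and -0.34 on arrays 2 and 3, so the groups overlapped, with a mean of -0.05 ± 0.55 (SD, n = 4) and an interval from -0.61 to 0.51 (limma adjusted p = 1). This was the largest SD of the 9 genes. SLC39A10, an importer of the cell membrane, had levels of 7.64, 7.52, 7.22 and 7.43 in good-donor pools and 7.20, 7.62, 7.27 and 7.53 in poor-donor pools. Its ratio was 0.44 on array 1 and between -0.11 and -0.04 on the others, with a mean of 0.05 ± 0.26 (SD, n = 4), an interval from -0.24 to 0.33 (limma adjusted p = 1), and other probes at -0.04 and 9.2e-05.

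SLC39A14 carries zinc, iron and manganese and is known in mouse liver as an importer induced by inflammation. Its brightest probe had levels of 11.32, 11.09, 11.44 and 11.54 in good-donor pools and 11.53, 11.28, 10.89 and 10.81 in poor-donor pools. The ratio followed the dye, at -0.22 and -0.20 where good donors carried Cy5 and 0.56 and 0.74 where they carried Cy3. The mean was 0.22 ± 0.50 (SD, n = 4), with an interval from -0.29 to 0.73 (limma adjusted p = 1). The dye term of the fit had an unadjusted limma p of 0.0016, against 15.7% of tested genes with one under 0.05, and an adjusted p of 0.183. A second probe showed the same split, with means of -0.19 and 0.26 for the Cy5 and Cy3 orientations, and the remaining probe did not, with -0.06 and -0.05. Among the 9 genes SLC39A14 was the only one whose ratio had one sign in one orientation and the other sign in the other, against 25% of the tested genes.

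**Figure D3:**
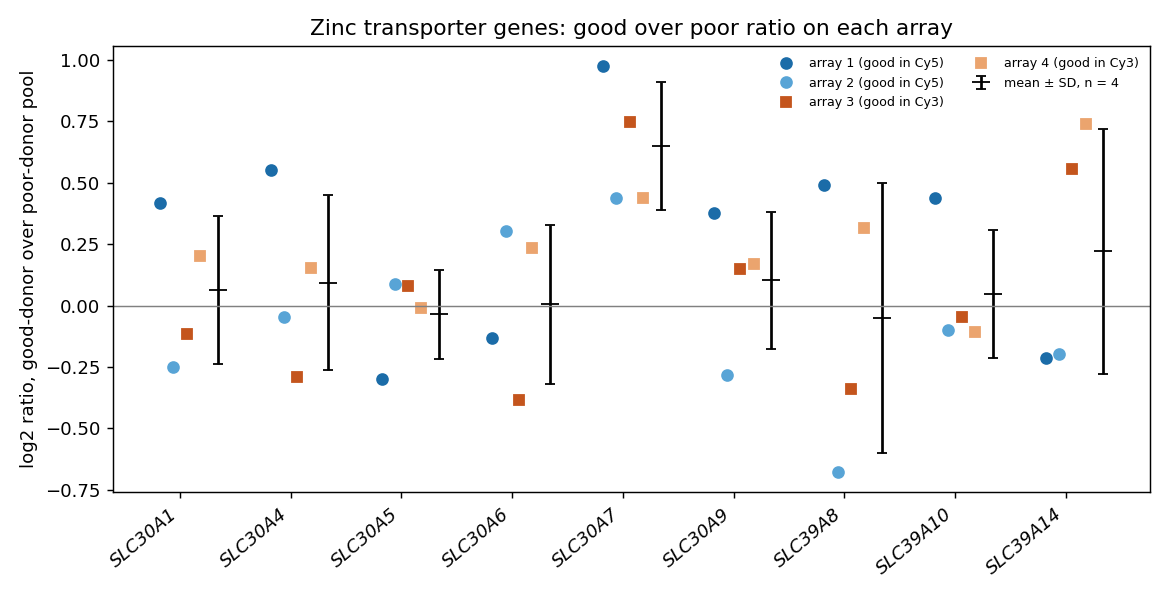
Log2 ratio of good-donor over poor-donor signal (vertical axis) of each of the 9 genes on each array, with circles where good donors carried Cy5 and squares where they carried Cy3. Black bars give the mean and SD over 4 arrays, and only the SD bar of SLC30A7 lies wholly above 0.

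None of the 8 genes chosen by family passed the test. Over all 31917 tested probes 0 had a limma adjusted p under 0.05, with the smallest at 0.622, so percent called was 0% of probes. An unadjusted p under 0.05 was found for 3.55% of tested probes, for 4.64% of tested genes and for 0 of these 8 genes, the smallest being 0.319 for SLC39A14. For each of these 8 genes the SD over arrays exceeded the mean ratio. Their intervals bounded the ratio of normalized signals at 1.66-fold higher or 1.53-fold lower in good-donor pools at the outermost. These signals include an offset of 50, which makes the ratios of dim probes smaller. For dim genes such as SLC30A4 and SLC30A1 the intervals therefore do not bound a change in transcript amount. Only the interval of SLC39A14 reached as high as the mean ratio of SLC30A7. Because SLC30A7 was picked for that ratio, this describes the values and tests no difference between the genes. Of the 9 genes, 1 had the same sign on all 4 arrays, against 10.1% of tested genes, and this gene was the one picked for its ratio. The median of the mean ratios was 0.06 for all 9 and 0.05 without SLC30A7.

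The ratios differed by array. The median ratio of the 9 genes was 0.42, -0.10, -0.04 and 0.20 on arrays 1 to 4. The good-donor pool was higher for 6 of 9 genes on array 1 (53.2% of tested genes), for 3 on array 2 (47.7%), for 4 on array 3 (48%) and for 7 on array 4 (48.9%). On array 1, SLC30A1, SLC30A4, SLC30A7, SLC30A9, SLC39A8 and SLC39A10 all had ratios above 0, the smallest being 0.378 for SLC30A9, while SLC30A5, SLC30A6 and SLC39A14 were below 0.

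Metallothioneins are small proteins that bind zinc in the cytosol, and their transcripts are a common readout of zinc supply because MTF1 switches them on when zinc rises. MT1A had levels of 13.49, 12.21, 13.33 and 13.29 in good-donor pools and 12.94, 14.05, 13.17 and 13.12 in poor-donor pools. The lowest level was in good-donor pool 2 and the highest in poor-donor pool 10, which share array 2. MT2A ran the same way, with 8.28, 6.84, 8.22 and 8.33 in good-donor pools and 7.72, 8.67, 8.002 and 7.57 in poor-donor pools. MT1E had 8.68, 7.75, 8.70 and 8.55, and 8.44, 9.23, 8.75 and 8.32. The transcripts of this family are alike in sequence and can share probe signal, so these are not 3 separate measurements.

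The ratios on array 2 were -1.84 for MT1A, -1.83 for MT2A and -1.48 for MT1E, and -0.62 with the other MT1E probe. On the other arrays they lay between -0.05 and 0.77 for the brightest probes. The means of the brightest probes over 4 arrays were -0.24 ± 1.08, -0.07 ± 1.19 and -0.26 ± 0.82 (SD, n = 4; limma adjusted p = 1 for each), and without array 2 they turned to 0.30, 0.51 and 0.14. The other MT1E probe had 0.39, -0.08 and -0.29 on arrays 1, 3 and 4. Among the 9 transporter genes, 1 was lower in the good-donor pool of array 2 by 1.5-fold or more, against 3.92% of tested genes, and this was SLC39A8. SLC30A9 had -0.28, SLC30A1 -0.25, SLC39A14 -0.20, SLC39A10 -0.10 and SLC30A4 -0.05 on that array. SLC30A5, SLC30A6 and SLC30A7 were above 0 there, at 0.09, 0.30 and 0.44. MTF1 itself had ratios of -0.52, 0.12, -0.10 and -0.05, with a mean of -0.14 ± 0.27 (SD, n = 4).

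**Figure D4:**
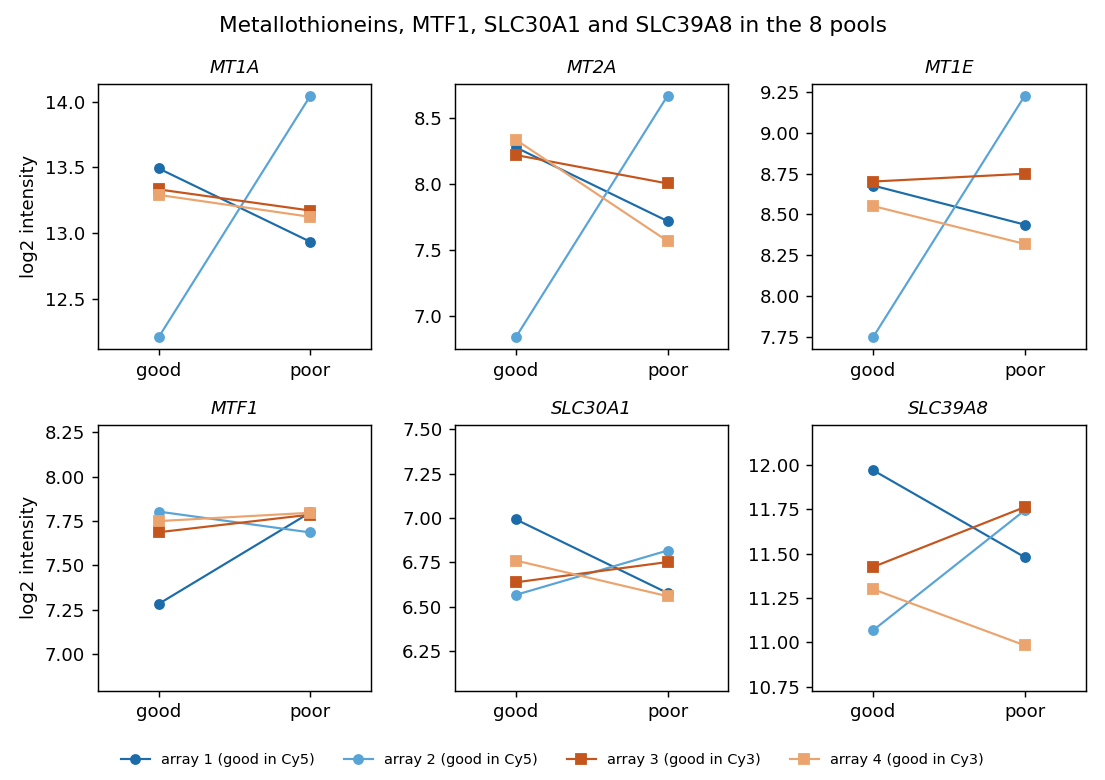
Levels (log2 intensity, vertical axis, own scale in each panel) of MT1A, MT2A, MT1E, MTF1, SLC30A1 and SLC39A8 in the good-donor and poor-donor pools, with a line joining the pools of an array. For the 3 metallothionein genes the line of array 2 starts lowest and ends highest, while on the other arrays the good-donor pool is higher or nearly level.

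The other zinc transporters showed no shared direction. Of 16 genes listed, 15 were on the array and 12 were above background. Of these, 7 had a mean ratio above 0 and 5 below, against 48.4% of tested genes above 0. Their means ran from -0.21 to 0.18, with a median of 0.04, and 0 had an unadjusted p under 0.05. SLC39A13, which releases zinc from Golgi and other vesicles, had 0.18 ± 0.24, SLC39A7, which releases it from the endoplasmic reticulum, 0.08 ± 0.11, and SLC39A9, which sits in the Golgi, 0.08 ± 0.07 (SD, n = 4). The other SLC39A9 probes gave -0.11 and 0.08. SLC39A6, the partner of SLC39A10 in a joint importer in mouse cells, had 0.04 ± 0.07, SLC39A2, another cell membrane importer, 0.12 ± 0.15 and SLC30A3, known in mouse brain for filling synaptic vesicles with zinc, 0.14 ± 0.22 (SD, n = 4; limma adjusted p = 1 for each of these genes). SLC39A5 had the smallest spread, with ratios between -0.08 and -0.04 on all 4 arrays, and was singled out after its values were seen.

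**Figure D5:**
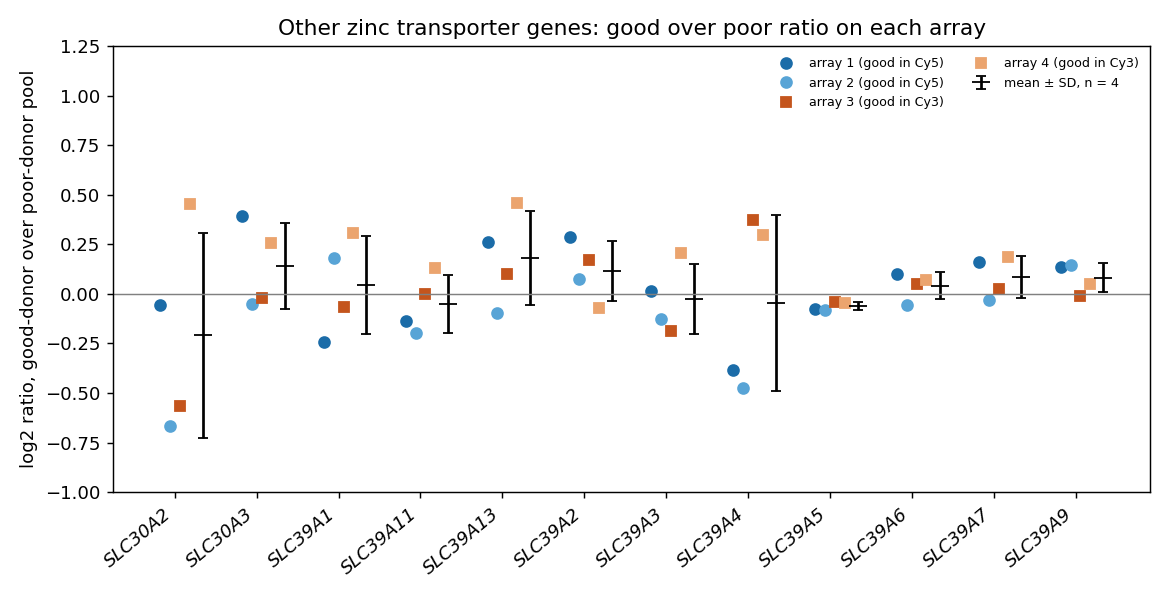
Log2 ratio of good-donor over poor-donor signal (vertical axis) of the 12 other zinc transporter genes above background, by array, with circles where good donors carried Cy5, squares where they carried Cy3 and black bars for the mean and SD over 4 arrays. None of the means lies further from 0 than -0.21, against 0.65 for SLC30A7, the gene picked for its ratio.

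Genes of zinc sensing and buffering, 8 of 9 above background, had 3 means above 0 and 5 below, with a median of -0.04. For comparison, 48.4% of tested genes had a mean above 0. KEAP1, a sensor of oxidants that binds zinc, had 0.15 ± 0.16 and a ratio above 0 on each of the 4 arrays, and MT3, a further metallothionein, had 0.06 ± 0.14 (SD, n = 4; limma adjusted p = 1 for each). Zinc enzymes of the secretory pathway, with the zinc-binding chaperone ERP44, had 11 of 16 genes above background, 6 means above 0 and 5 below, and a median of 0.03. MMP14, a membrane-bound metalloproteinase, had 0.35 ± 0.52 and CPE, a carboxypeptidase that trims prohormones, 0.20 ± 0.35 (SD, n = 4). ADAM10, a shedding protease, had 0.08 ± 0.14 and ACE, the angiotensin-converting enzyme, 0.06 ± 0.08 (SD, n = 4; limma adjusted p = 1 for each of these 4). The ratio of MMP14 was above 0 on arrays 1, 3 and 4 and was -0.42 on array 2. ALPL, the alkaline phosphatase that depends on Golgi zinc, was not among the genes above background.

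Transporters and stores of iron, copper and manganese had 10 of 12 genes above background, with 2 means above 0 and 8 below and a median of -0.07. Over all tested genes 48.4% had a mean above 0. Of these 10 genes, 0 had the same sign on all 4 arrays. SLC40A1, the iron exporter, had 0.20 ± 0.19, and SLC11A2, an importer of iron, -0.14 ± 0.14, with other tested probes at -0.06 and 0.07. The copper importer SLC31A1 had -0.17 ± 0.25 (other tested probe -0.04) and the transferrin receptor TFRC -0.11 ± 0.14 (SD, n = 4; limma adjusted p = 1 for each). In these 4 lists together 0 genes had an unadjusted limma p under 0.05, against 4.64% of tested genes.

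The 5 genes nearest to SLC30A7 over the 4 ratios were found by Euclidean distance among 12597 other genes, and this likeness describes 4 arrays only. They were GSK3A, a kinase of glycogen and insulin signalling, at a distance of 0.26, KIF3A, a kinesin motor subunit, at 0.48, ZBTB21 at 0.49, DEXI at 0.53 and PIP5K1C, a phosphoinositide kinase, at 0.57. The ratios of GSK3A were 0.89, 0.19, 0.72 and 0.45 on arrays 1 to 4, so it shared with SLC30A7 the larger values on arrays 1 and 3. The other tested probes of KIF3A gave 0.17 and -0.04 and that of ZBTB21 gave 0.14, so for these genes the likeness held for the brightest probe.

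Markers of granulosa cells and of other cells of a follicular aspirate are given beside these ratios. The lists were chosen with earlier results of these data known. All 10 granulosa markers had a mean ratio above 0, with a median of 0.19. The log2 of their summed intensity ran from 16.18 to 16.88 in good-donor and from 15.64 to 16.79 in poor-donor pools. The brightest markers weigh most in such a sum. Of 15 leukocyte markers 12 were above background, and all 12 had a mean ratio below 0. Their summed intensity had a log2 from 10.36 to 11.20 in good-donor and from 10.85 to 12.76 in poor-donor pools. ITGAM, CD79A and ITGB2 were the leukocyte markers not above background. Of 15 epithelium markers 12 were above background, and all 12 had a mean ratio below 0. Their summed intensity had a log2 from 13.03 to 14.89 in good-donor and from 14.14 to 16.33 in poor-donor pools. KRT5, CLDN3 and CDH1 were not above background. The 3 other marker lists showed no such shared direction. A mean ratio above 0 was found for 3 of 8 tested theca and muscle markers, 3 of 6 endothelium markers and 2 of 4 oocyte markers. Over all tested genes the share was 48.4%. The granulosa median was -0.01, 0.51, 0.21 and 0.29 on arrays 1 to 4, the leukocyte median 0.10, -0.23, 0.01 and -1.30 and the epithelium median 0.41, -0.96, -0.96 and -2.72. The median of the 9 transporter genes, given above, was highest on array 1, where the granulosa median was lowest. The leukocyte and epithelium medians were also highest on array 1. On array 4, where these 2 medians were lowest, the transporter median was 0.20. An unadjusted limma p under 0.05 was found for 3 of 12 epithelium, 1 of 10 granulosa and 0 of 12 leukocyte markers, against 4.64% of tested genes. It was found for 0 of the theca and muscle, endothelium and oocyte markers. Of all these markers 0 passed the adjusted limma test. Markers of a list come from the same pools and are not independent. In pooled RNA, fewer cells of a type and less RNA per cell cannot be told apart, and the part of these cells in the ratios was not tested.

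As for the arrays as a whole, median foreground intensity ranged from 49.9 to 54.3 in Cy5 and from 90.5 to 132 in Cy3, and the control level from 43.8 to 46.8 and from 77.4 to 110. Pearson's r between the ratios of 2 arrays over the tested probes, which are not independent, ran from -0.34 (arrays 1 and 3) to 0.29 (arrays 3 and 4), as a description. Arrays 1 and 3 have opposite dye orientations, and the direction of each ratio is set by the dye labels. The other pairs of opposite orientation had r of -0.07 (arrays 1 and 4), 0.06 (2 and 3) and 0.04 (2 and 4). Arrays 1 and 2, of the same orientation, had -0.02. Whether dye orientation plays a part in these values was not tested.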

How the data were processed

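The series holds 4 two-colour arrays. Per the file headers, the scanner files hold linear foreground and background intensity of both dyes for each spot, without naming the scanner software. The authors also deposited normalized log2 ratios, whose method, centring and direction no label or header states. Set against the scanner ratios turned to good over poor, they had r between -0.98 and -0.96, so their sign is opposite to the direction the dye labels give, and they served as an alternative with the sign turned. Which direction they were meant to have was not tested. Their medians on arrays 1 to 4 were 0.023, 0.0039, -0.015 and -0.029.

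Mean foreground intensity was corrected with the median background by normexp (offset 50), normalized by loess within arrays with control spots at weight 0 and by Aquantile between arrays (limma 3.58.1, R 4.3.3). Every probe had 1 spot, and no spot of the 9 genes was among the few the files list as ignored. Probes above the 95th percentile of 757 dark and negative control spots in at least 4 of 8 channels were tested, because the files hold no well-above-background column. The mean of 4 ratios was set against 0 by limma (lmFit, eBayes; two-sided), and p-values were adjusted by Benjamini-Hochberg over 31917 probes with a threshold of 0.05, with 3 residual and 1.98 prior degrees of freedom. The fit was tested on simulated data. The arrays lie on 1 slide per the file names, and their number limits the precision.

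The platform's annotation table named the genes and gave 1 symbol to 21790 probes. Of 15229 symbols 14114 were in RefSeq's table (ARS-UCD2.0) and 982 were updated through a synonym. No coordinates are given, since the array's build is not stated. The genes and lists were chosen with earlier results of these data known. Named genes were all 9 transporters, up to 4 per zinc or metal list by smallest unadjusted p, 7 further zinc genes, and the 5 genes nearest to SLC30A7. Alternatives changed the background, foreground, normalization, filter, dye term, model (separate channels, statmod 1.5.0), spread, weights, source of values, probe of a gene and arrays included.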

Additional observations from a re-analysis of the deposited data

Results flagged for a closer look

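Of 102 sets of 4 values examined for 1 value far from the others (the ratios, good-donor levels and poor-donor levels of 34 genes), 10 stood out, against 5.1 by chance, and the sets overlap because a ratio is the difference of its levels. Among the 9 transporters the only one was the ratio of SLC39A10, at 0.44 on array 1 and between -0.11 and -0.04 on the others. Array 2 accounted for 7 of the 10. On it the ratio was -1.84 for MT1A (0.16 to 0.56 on the others) and -1.48 for MT1E (-0.05 to 0.24). The good-donor level of array 2 was 12.21 for MT1A (13.29 to 13.49 on the others), 6.84 for MT2A (8.22 to 8.33) and 7.75 for MT1E (8.55 to 8.70). Transcripts of these metallothioneins can share probe signal. The ratio of MMP14 on array 2 was -0.42 (0.60 to 0.62 on the others), and the poor-donor level of MTF1 there was 7.69 (7.79 to 7.80). KEAP1 had a ratio of 0.39 on array 4 (0.07 to 0.08), and KIF3A a good-donor level of 8.14 on array 3 (7.96 to 7.98).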

How the results depend on the processing

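The mean ratio of SLC30A7, a gene picked for that ratio, was above 0 under all 16 alternatives. It lay from 0.54 to 0.72 without 1 array and from 0.65 to 0.70 otherwise, the latter upper value with the authors' deposited ratios. Because its ratio was above 0 on every array, leaving out or weighting arrays could not change that sign. The alternatives of filter, dye term, model, spread and mean of all probes returned the same mean for its 1 probe. Only a changed background, foreground, normalization or source of values could have turned it. No probe passed the adjusted threshold under any of the 15 alternatives that gave a count, with 642 (median centring) to 1839 (dye term) probes at an unadjusted limma p under 0.05 against 1132 as reported. With median foreground, SLC30A5 turned to 0.013 and SLC39A6 to -0.045. Median centring turned SLC39A8 to 0.0058, array weights turned SLC30A6 to -0.037, and the authors' deposited ratios, with the sign turned, gave SLC30A5 0.0016. Leaving out 1 array gave ranges of -0.055 to 0.17 for SLC30A1, -0.061 to 0.22 for SLC30A4, -0.078 to 0.052 for SLC30A5, -0.096 to 0.135 for SLC30A6, -0.23 to 0.16 for SLC39A8 and -0.083 to 0.098 for SLC39A10. SLC30A9 (0.10 as reported) ranged from 0.012 to 0.23 and SLC39A14 (0.22) from 0.048 to 0.37, or 0.067 with the mean of all its tested probes. MMP14 (0.35) ranged from 0.26 to 0.61 and CPE (0.20) from 0.032 to 0.31. Other named genes with no call also moved by over 1.5 times, among them MTF1 (-0.14), at -0.0096 without array 1. It gave -0.50 to 0.30 for MT1A, -0.35 to 0.51 for MT2A and -0.43 to 0.14 for MT1E. The number of transporters with 1 sign on all arrays kept was 1 to 2 without 1 array, being 2 without array 1 and 2 without array 2. The median ratio of the 9 genes stayed above 0, from 0.01 to 0.16. Above background in all 8 channels, SLC30A4 and ACE gave no value, and the mean of all probes of a gene gave no count of passing probes. With the mean of all probes, KIF3A had 0.25 in place of 0.62. SLC30A4 and the dimmer probes of SLC30A1, SLC30A6 and SLC39A10 were not above background in every channel, which limits what their ratios can resolve. The causes of these shifts were not tested. The reported test and the separate-channel fit are paired by array, so no further replicate block was added.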

Other observations

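Among the 11 tested zinc enzymes and chaperone of the secretory pathway, the SD of the ratio over arrays ran from 0.08 for ACE to 1.97 for ENPP3, and the 3 genes with the largest SD, singled out after their values were seen, were ENPP3, NT5E and ENPP1. ENPP2, of the same family, had an SD of 0.28. ENPP1, which splits extracellular nucleotides, had a log2 ratio of -1.43 on array 2 and of 0.22, 0.24 and 0.27 on arrays 1, 3 and 4. Poor-donor pool 10 stood apart for this gene, at a level of 8.14 against 6.69 to 6.93 in the other poor-donor pools and 6.71 to 7.20 in the good-donor pools. NT5E, the ecto-nucleotidase that makes adenosine, had 0.98, -0.84, 0.09 and -0.75 on arrays 1 to 4. ENPP3 had 3.07, -0.72, -1.29 and -0.31, and 1 good-donor pool was not above background. Their means of -0.18 ± 0.83, -0.13 ± 0.85 and 0.19 ± 1.97 (SD, n = 4) lay within the spread over arrays.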
